A study of Mus musculus with 2 samples.

Results

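The genes described here are 42 genes of the actin cytoskeleton and of its control by serum response factor: actins, actin-binding and contractile proteins, the adhesion proteins that anchor filaments, vimentin, and the transcription factor gene Srf with its cofactor genes Mkl1 and Mkl2. They were chosen by gene symbol from a written list, which was made with earlier results of these data known. Of the 42 symbols 41 stand among the 35129 gene symbols of the files. Myl12a did not match by symbol, but its older symbol 2900073G15Rik did, and its values are given apart. RNA of mouse primary hepatocytes of the strain C57BL/6 was sequenced after infection with an adenovirus labelled Ad-KLF14, which carries an expression vector for the zinc finger factor KLF14, or Ad-GFP, the control virus. The series' design text calls the control an empty vector, while the sample label names GFP. The time after infection, the virus dose and the age and sex of the mice are not given in the sources used here, and virus infection is shared by both groups. The design text also speaks of triplicates and of retina, but 1 table stands for each group here and is treated as 1 library. With 1 library a group there is no replicate check and no p-value, and what is compared throughout is 2 libraries.

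Actin cycles between monomers and filaments, and a hepatocyte uses the filaments for the pericanalicular web, the cell cortex and, once plated, for stress fibres and adhesion plaques. MRTF proteins, encoded by Mkl1 and Mkl2, bind actin monomers in the cytoplasm. When filaments grow and free monomers become scarce, they enter the nucleus and activate SRF, which binds a DNA element called the CArG box in front of many actin, tropomyosin, calponin and adhesion genes. Hepatocytes placed in culture are known to gain actin stress fibres and vimentin as they lose polarity.

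The levels are FPKM, fragments per kilobase of gene model scaled to the depth of the library, and can be compared between genes. Read totals of 11151711 for Ad-KLF14 and 11311344 for Ad-GFP were worked out from the steps between the values. The Klf14 gene itself stood at 13164 FPKM with Ad-KLF14 and at 0.298 FPKM with Ad-GFP, as the labels have it, and took 1.95% of the reads of its library. The cells carried the hepatocyte genes: all 8 of the markers listed were above 1 FPKM in both libraries, with Alb at 4172 and 5115 FPKM. Ratios are Ad-KLF14 over Ad-GFP. A log2 ratio is taken after adding 1 FPKM to each value, so that it is too small for low genes, while a fold is the plain ratio of the FPKM values. The interval behind a fold is a 95% Clopper-Pearson interval of the reads, and covers counting error only and nothing of the spread between cultures.

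The CArG box was searched for in RefSeq windows from 250 bases before to 50 bases after the gene start (build GRCm38.p6). Windows were found for 40 of the 42 genes, and 10 of these (25%) held a box, against 1.81% of the 27025 genes with a window. Actb and Tagln had no window and were not searched. The genes were listed for their link to SRF, so this share describes the list and is no finding. The boxes of the 7 genes among them that were measured are shown here in capitals, each with the bases around it, 5′ to 3′ on the strand of the gene. They are shown because these members range from 1.17-fold lower (Myl6) to 9.93-fold lower (Cnn2) with Ad-KLF14.
Cnn2, chr10:79988519-79988578, plus strand: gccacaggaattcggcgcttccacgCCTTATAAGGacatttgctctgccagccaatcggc
Fhl2, upstream start, chr1:43196823-43196882, minus strand: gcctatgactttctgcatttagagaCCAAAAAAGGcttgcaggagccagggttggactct
Fhl2, downstream start, chr1:43163962-43164017, minus strand: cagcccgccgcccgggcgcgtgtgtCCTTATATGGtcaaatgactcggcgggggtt
Lima1, chr15:99820162-99820221, minus strand: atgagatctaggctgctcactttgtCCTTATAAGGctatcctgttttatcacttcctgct
Actg1, chr11:120348551-120348610, minus strand: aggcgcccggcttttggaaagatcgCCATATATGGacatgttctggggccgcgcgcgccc
Vcl, chr14:20929148-20929205, plus strand: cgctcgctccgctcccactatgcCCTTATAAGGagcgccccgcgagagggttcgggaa
Myl6, chr10:128493025-128493084, minus strand: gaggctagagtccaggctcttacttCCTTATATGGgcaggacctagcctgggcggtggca
Srf, chr17:46556210-46556269, minus strand: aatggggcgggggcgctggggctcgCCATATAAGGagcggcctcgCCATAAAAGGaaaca

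The other 3 genes with a box, Acta1, Fhl1 and Myl9, were below 1 FPKM in both libraries. Counted from the gene start, with negative positions before it, the first base of the box was at −56 in Cnn2, −47 in Lima1, −50 in Myl6, −90 in Actg1 and −227 in Vcl. Srf carried a pair of boxes, at −82 and −62. Fhl2 had windows at 2 starts, with a box at −96 of the upstream one and at −31 of the downstream one.

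As a whole the module was lower with Ad-KLF14. Its list was made with earlier results known, so the shares of all genes below are set beside it as description only. Of the 41 genes 36 averaged 1 FPKM or more between the libraries and are called measured here. On the log2 scale 15 of these were 2-fold lower or more, against 8.99% of all 12419 genes measured. None was 2-fold higher (0 of 36), against 6.37% of all genes. At a 1.5-fold line 23 were lower, against 20.9% of all genes, and 2 (Tagln and Myh10) were higher, against 16.7%. Below 0 on the log2 ratio stood 32 of the 36, against 51.7% of all genes. The median log2 ratio was −0.86, beside −0.03 over all genes. The counting interval lay below 1 for 31 genes, above 1 for 3 and held 1 for 2, Ezr and Mylk. Summed over the 41 genes, the level was 3642 FPKM with Ad-KLF14 and 6624 FPKM with Ad-GFP, or 0.764% and 1.34% of all FPKM. In RNA of whole cultures, fewer cells of a type and less RNA per cell cannot be told apart. Over all genes 1117 were lower and 791 higher by 2-fold among the 12419 measured. With both libraries set to an FPKM sum of 1000000 without Klf14, 1224 were lower and 1309 higher among 13732 genes (8.91% and 9.53%), and of 37 members 13 were lower and 0 higher. That setting also raises the values against the filter and the pseudocount, so the scaling is not the only thing it changes.

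**Figure D1:**
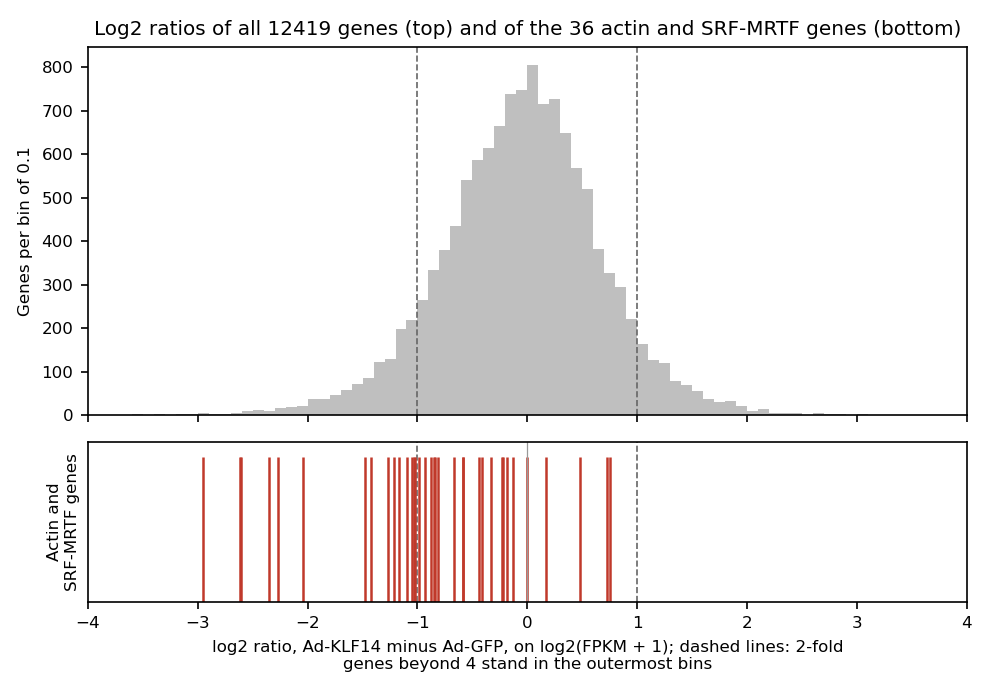
The upper panel counts all 12419 measured genes by log2 ratio (Ad-KLF14 over Ad-GFP, pseudocount 1 FPKM), and the lower panel marks each of the 36 measured actin and SRF-MRTF genes with a line. The 15 lines left of the dashed line at −1 are the genes at least 2-fold lower, no line lies right of 1, and the all-gene distribution is centred near 0.

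The cytoplasmic actins form the filaments of non-muscle cells, and Actb had the highest level of the module in both libraries. Actb stood at 598 FPKM with Ad-KLF14 and 1392 FPKM with Ad-GFP, 2.33-fold lower (interval 2.28 to 2.38). Actg1 stood at 223 and 426 FPKM, 1.91-fold lower (interval 1.84 to 1.98). The intervals do not overlap, and Actb made up 72.8% of the summed actin level with Ad-KLF14 and 76.5% with Ad-GFP. The muscle actins were nearly silent. Acta2, the actin of smooth muscle and of activated stellate cells, rested on 1 read in each library, and skeletal Acta1 was at 0.813 and 0.617 FPKM from 13 and 10 reads. The coding sequences of the actins are nearly identical, so reads shared between them could have been split, and the single values are uncertain to that extent.

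**Figure D2:**
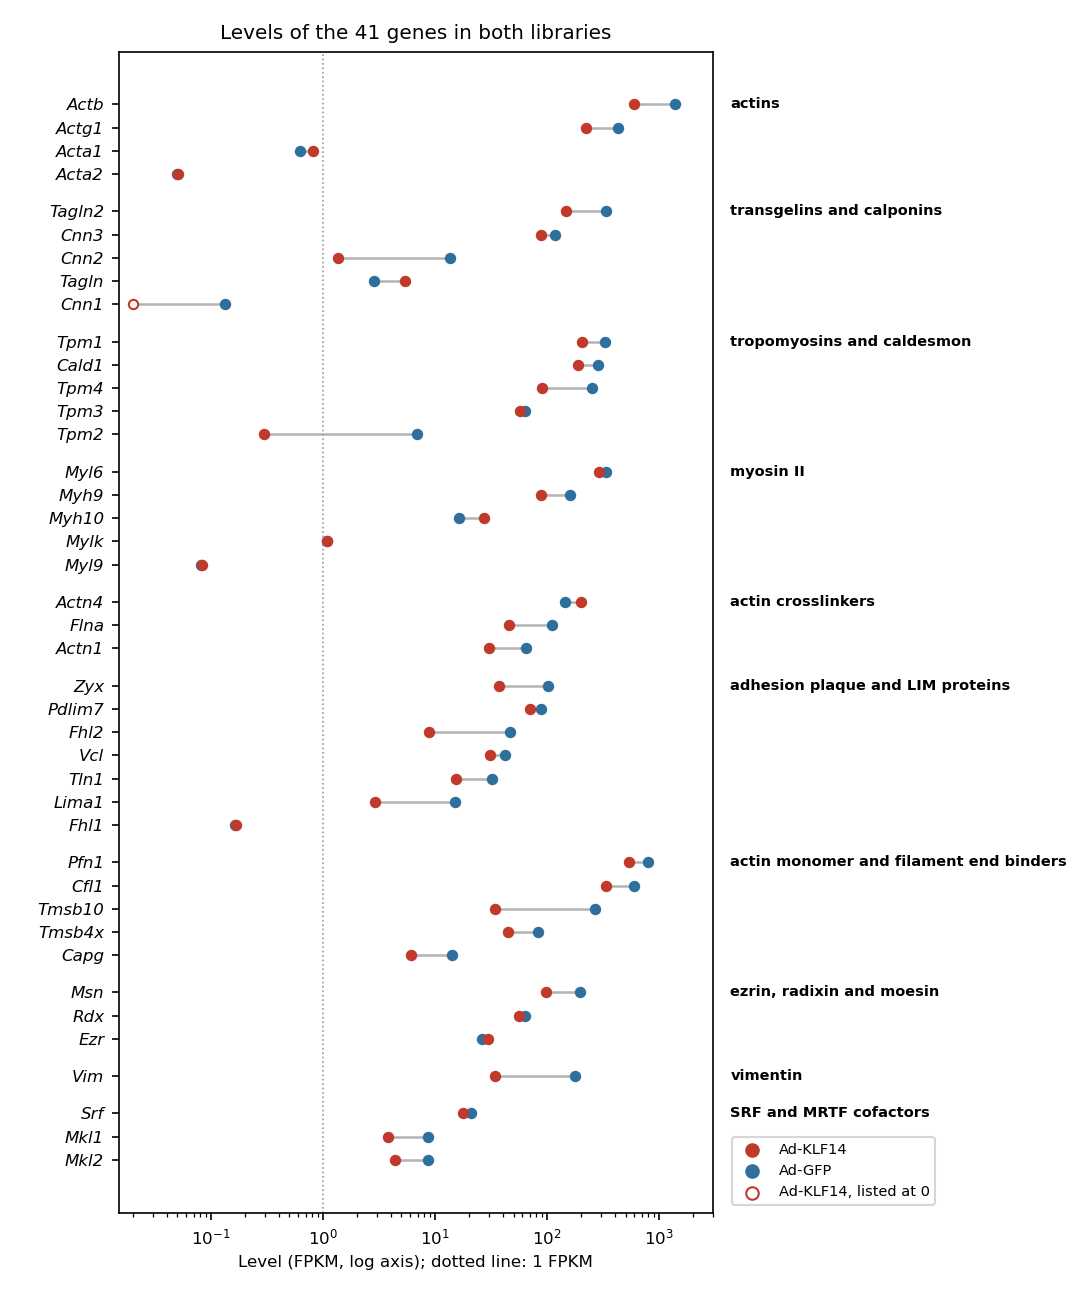
Each row is 1 of the 41 genes, grouped by role, with its level in FPKM on a log axis in Ad-KLF14 (red) and Ad-GFP (blue). Red lies left of blue in most rows, the exceptions among measured genes being Tagln, Myh10, Actn4 and Ezr, and the genes left of the dotted line, such as Acta2, Myl9, Cnn1 and Fhl1, lie at or near 0 in both libraries.

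Of the proteins that hold or cap actin monomers and filament ends, the beta-thymosins sequester monomers. Tmsb10 was at 33.9 FPKM with Ad-KLF14 and 269 FPKM with Ad-GFP, 7.93-fold lower (interval 6.93 to 9.10). Tmsb4x was at 44.4 and 82.3 FPKM, 1.86-fold lower (interval 1.62 to 2.13). The intervals of the paralogs do not overlap, and their order of level was turned round: Tmsb10 was 3.27 times Tmsb4x with Ad-GFP and 0.765 times Tmsb4x with Ad-KLF14. Together they stood at 78.3 and 351 FPKM, 4.49-fold lower. Pfn1, which feeds monomers to growing ends, was at 532 and 797 FPKM (a ratio of 0.667), and Cfl1, which severs filaments, at 336 and 592 FPKM (1.76-fold lower). The capping protein gene Capg was at 6.10 and 14.2 FPKM, 2.33-fold lower (interval 1.79 to 3.05). All 5 genes of this role were below 0 on the log2 ratio, and 2 were at least 2-fold lower.

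The tropomyosins, which lie along the filament and set which proteins may bind it, went apart. Tpm2 was at 0.299 FPKM with Ad-KLF14 from 7 reads and at 6.91 FPKM with Ad-GFP from 164 reads, 23.1-fold lower (interval 11.0 to 58.4). It was kept only through its Ad-GFP level. Tpm4 was at 89.6 and 251 FPKM (2.80-fold lower, interval 2.67 to 2.95) and Tpm1 at 206 and 328 FPKM (1.59-fold lower). Tpm3 was at 57.2 and 62.7 FPKM, a ratio of 0.912 (interval 0.843 to 0.987). Of the summed tropomyosin level Tpm1 made up 50.5% in Ad-GFP and 58.3% in Ad-KLF14, Tpm3 9.66% and 16.2%, and Tpm4 38.7% and 25.4%. Caldesmon, Cald1, which binds actin together with tropomyosin, was at 187 and 282 FPKM, 1.51-fold lower. All 5 genes of this role were below 0 and 2 were at least 2-fold lower.

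Calponins and transgelins stabilise filaments and differ in their tissues. Cnn2, the broadly expressed calponin, was at 1.36 FPKM with Ad-KLF14 from 27 reads and at 13.5 FPKM with Ad-GFP from 272 reads, 9.93-fold lower (interval 6.68 to 15.3). Cnn3 was at 87.6 and 117 FPKM, only 1.34-fold lower, and was the main calponin in both libraries, with 98.5% of the summed level in Ad-KLF14 and 89.6% in Ad-GFP. The smooth muscle form Cnn1 was listed at 0 with Ad-KLF14 and rested on 3 reads with Ad-GFP, so no fold is given. Tagln2 was at 148 and 333 FPKM, 2.26-fold lower (interval 2.15 to 2.37). Its smooth muscle relative Tagln went the other way, at 5.43 and 2.81 FPKM, 1.93-fold higher (interval 1.37 to 2.80), from 96 and 50 reads. Exons of Tagln overlap those of Pcsk7 and of Gm48529 on the opposite strand in GENCODE vM21, and whether strand was used in counting is not stated, so the reads of these genes cannot be told apart.

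**Figure D3:**
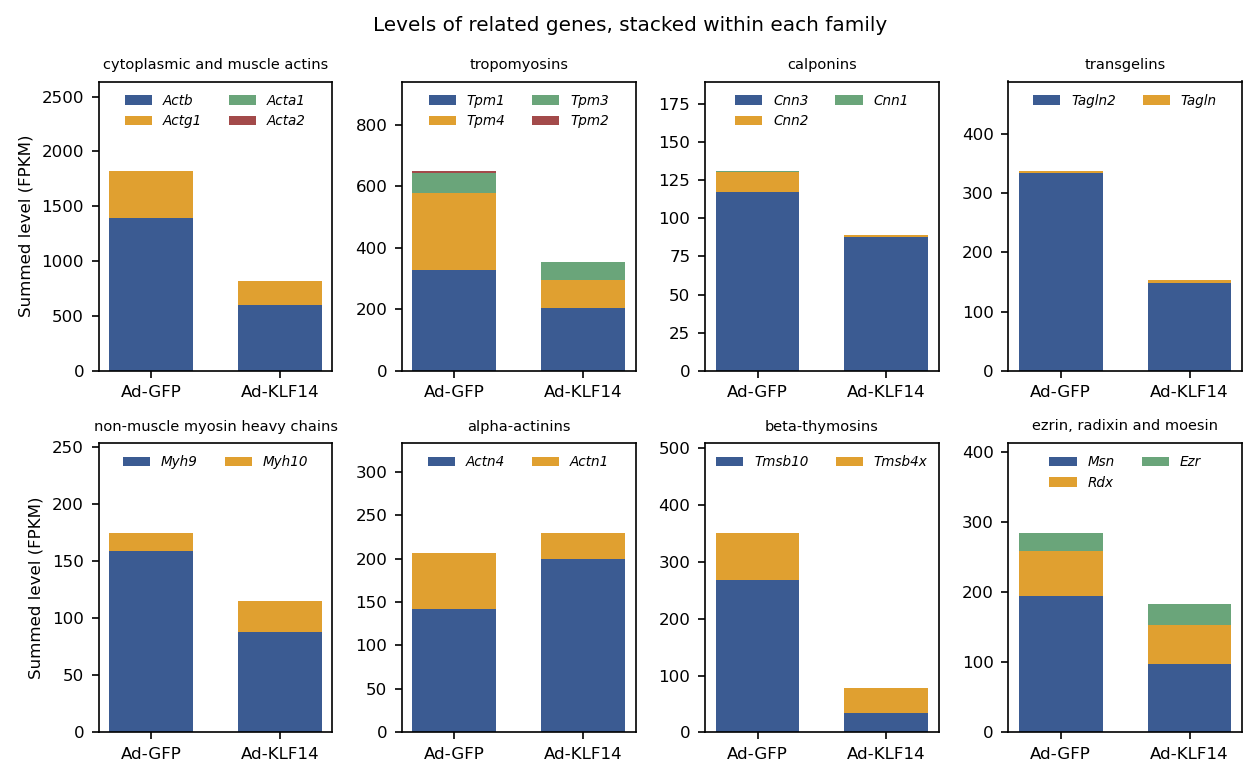
Stacked bars give the summed FPKM of related genes in Ad-GFP and Ad-KLF14 for 8 families, each on its own axis from 0. The bar of Ad-KLF14 is the shorter one in 7 families and the taller one for the alpha-actinins, and the make-up shifts most in the beta-thymosins, where Tmsb10 holds 76.6% in Ad-GFP and 43.3% in Ad-KLF14.

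Crosslinkers and non-muscle myosin showed paralogs in opposite directions. Filamin A, Flna, which joins filaments into nets, was at 45.3 FPKM with Ad-KLF14 and 110 FPKM with Ad-GFP, 2.44-fold lower (interval 2.35 to 2.52). Of the alpha-actinins, which bundle filaments, Actn1 was at 30.5 and 63.9 FPKM, 2.10-fold lower (interval 1.96 to 2.25). Actn4 was at 199 and 143 FPKM, 1.397-fold higher (interval 1.35 to 1.44). The level of Actn4 was 2.23 times that of Actn1 with Ad-GFP and 6.54 times with Ad-KLF14. The motor gene Myh9, the heavy chain of non-muscle myosin IIA, was at 87.9 and 159 FPKM, 1.804-fold lower (interval 1.75 to 1.86). Myh10, the heavy chain of myosin IIB, was at 27.5 and 16.3 FPKM, 1.69-fold higher (interval 1.58 to 1.81). The intervals of each pair lie on either side of 1. Exons of Actn4 overlap those of Capn12 by up to 316 bases on the opposite strand. Those of Actn1 overlap Gm47766 by up to 363 bases, also on the opposite strand.

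The light chains and the kinase of myosin II differed less between the libraries. Myl6, the essential light chain, was at 287 and 337 FPKM, a ratio of 0.851 (interval 0.801 to 0.904). The regulatory light chain Myl12a, under its older symbol 2900073G15Rik, was at 184 and 231 FPKM, a ratio of 0.796 (interval 0.762 to 0.832). Mylk, which phosphorylates the regulatory chain, was at 1.09 FPKM in both libraries (ratio 0.999, interval 0.748 to 1.35). The smooth muscle light chain Myl9 rested on 1 read in each library. Of the 4 measured genes of this role 0 were at least 2-fold lower.

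Adhesion plaques tie filaments to integrins, and 4 of the 6 measured genes of this role were at least 2-fold lower. Fhl2, a LIM protein that acts both at plaques and as a nuclear cofactor, was at 8.78 FPKM with Ad-KLF14 and 46.1 FPKM with Ad-GFP, 5.25-fold lower (interval 4.41 to 6.28). Lima1, which bundles filaments and is also called EPLIN, was at 2.92 and 15.1 FPKM, 5.17-fold lower (interval 4.31 to 6.25). Zyxin, Zyx, a sensor of strained filaments, was at 37.2 and 101 FPKM, 2.72-fold lower (interval 2.53 to 2.93). Talin, Tln1, which activates integrins, was at 15.3 and 32.0 FPKM, 2.09-fold lower (interval 1.92 to 2.29). Vinculin, Vcl, which binds talin, was only 1.37-fold lower (30.6 and 41.9 FPKM), and its exons overlap those of Ap3m1 by up to 2090 bases on the opposite strand. Exons of Tln1 and Zyx also overlap genes on the opposite strand, Creb3 by up to 360 bases and Epha1 by up to 156 bases. Pdlim7 was at 69.7 and 87.9 FPKM, 1.26-fold lower. Fhl1, a muscle relative of Fhl2, rested on 5 reads in each library.

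Ezrin, radixin and moesin link the cell membrane to the cortex and differed from each other. Moesin, Msn, was at 97.4 FPKM with Ad-KLF14 and 194 FPKM with Ad-GFP, 2.0-fold lower (interval 1.89 to 2.10) and just under the 2-fold line with its log2 ratio of −0.99. Radixin, Rdx, the form that hepatocytes carry at the bile canaliculus, was at 55.9 and 63.6 FPKM, a ratio of 0.878 (interval 0.835 to 0.924). Ezrin, Ezr, was at 29.7 and 26.3 FPKM, a ratio of 1.13 with an interval of 0.994 to 1.29 that holds 1. The reads worked out for this gene, which may be lower limits, do not resolve a difference. Moesin made up 68.4% of the summed level of these 3 genes in Ad-GFP and 53.3% in Ad-KLF14.

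Vimentin, Vim, the intermediate filament of mesenchymal cells, was at 33.9 FPKM with Ad-KLF14 and 177 FPKM with Ad-GFP, 5.21-fold lower (interval 4.80 to 5.66). Only 0.411% of all measured genes had a lower log2 ratio than its −2.35. Of the members, Tmsb10 (−2.95), Cnn2 (−2.62) and Tpm2 (−2.61) lay lower still, with Fhl2 (−2.27) and Lima1 (−2.04) next. This order depends on the pseudocount for the low genes: with 5 FPKM in place of 1 FPKM, Tpm2 was at −1.17, Lima1 at −1.34 and Cnn2 at −1.54, beside Tpm4 at −1.44, and with 0.1 FPKM Tpm2 was at −4.13 and Cnn2 at −3.22.

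**Figure D4:**
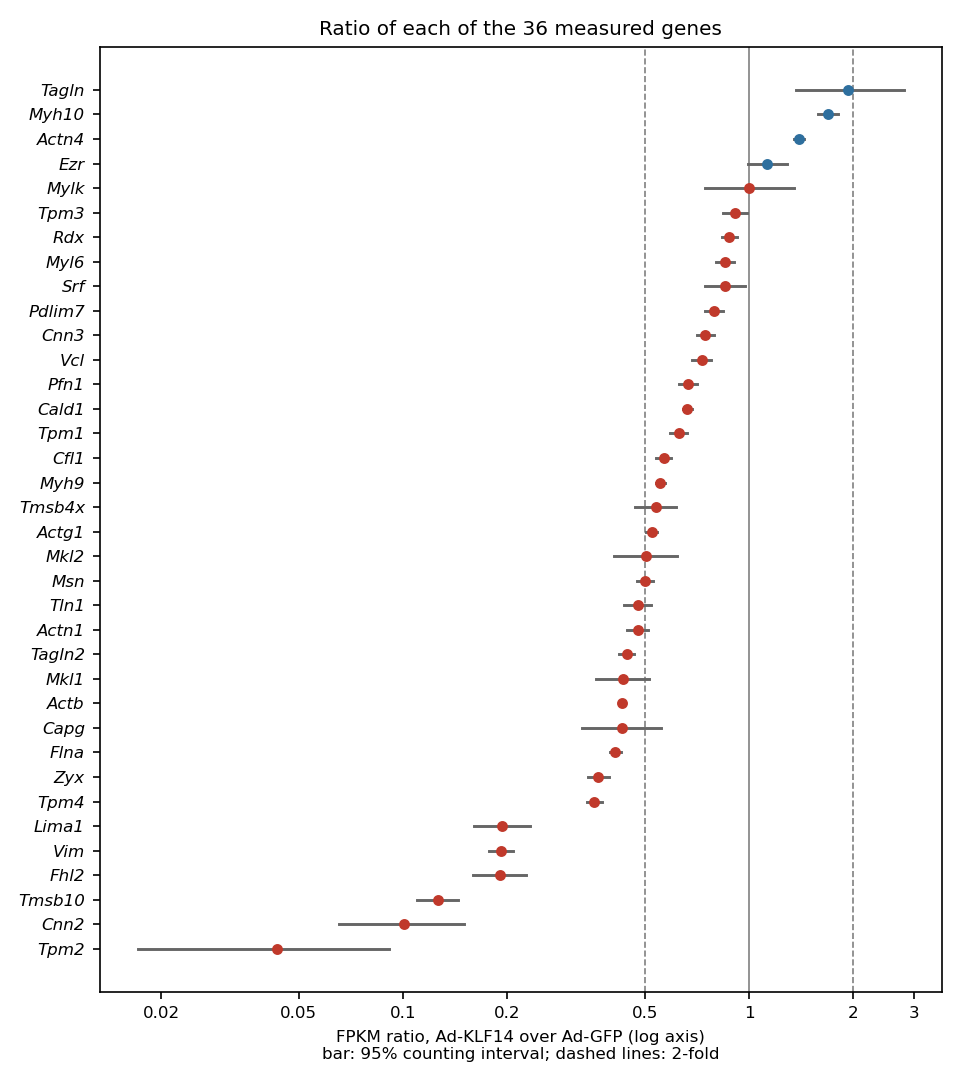
Each row is 1 of the 36 measured genes, ordered by its FPKM ratio of Ad-KLF14 over Ad-GFP on a log axis, with the 95% counting interval as a bar. Tpm2, Cnn2, Tmsb10, Fhl2, Vim and Lima1 stand apart on the left at ratios of 0.0433 to 0.193, and only Tagln, Myh10, Actn4 and Ezr lie right of 1.

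Of the regulators, Srf itself was at 17.8 FPKM with Ad-KLF14 and 20.9 FPKM with Ad-GFP (ratio 0.851, interval 0.744 to 0.973). Its cofactors were both lower. Mkl1, which encodes MRTF-A, was at 3.76 and 8.71 FPKM, 2.32-fold lower (interval 1.94 to 2.77), and Mkl2, which encodes MRTF-B, at 4.38 and 8.70 FPKM, 1.99-fold lower (interval 1.61 to 2.46). With a pseudocount of 5 FPKM Mkl1 was at a log2 ratio of −0.65 in place of −1.03.

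Lower members were found both with and without a CArG box in the window. The 7 measured genes with a box were all below 0, and 3 reached the 2-fold line. Their median log2 ratio was −0.93. Of the 27 measured genes with a window and no box 24 were below 0, 11 reached that line, and the median was −0.85. Actb (log2 ratio −1.22) and Tagln (0.75) had no window and stand in neither group, so whether they carry a box is not known here. Genes with the same letters in the box differed: Cnn2, Lima1 and Vcl all carried the box printed above for Cnn2, and were 9.93-fold, 5.17-fold and 1.37-fold lower. GGGCGG on either strand, the core of the GC box that SP and KLF factors bind, was present in 30 of the 40 (75%) and in 38.2% of all genes with a window. CCACCC on either strand was present in 26 of the 40 (65%) and in 34.05% of all. CATTCC on either strand, the core of the TEAD site, was present in 13 of the 40 (32.5%) and in 16.6% of all. TATAAA on either strand was present in 7 of the 40 (17.5%) and in 15.7% of all. The genes with a window were not limited to measured genes, while most of the 40 were measured. The shares thus compare unlike sets and are not read as a trait of the module. Matches of different motifs may overlap, and none of these counts shows binding.

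The 200 bases before the start of Tpm2 and Vim, both among the 6 genes with the lowest ratios and both without a box in the window, are shown. The GC box core and the CCACCC motif, on either strand, are in capitals. Tmsb10, also among these 6 genes and also without a box, is not shown, so the 2 stretches are examples only. Tpm2 held 2 matches of the GC box core and 1 of the other motif, and Vim 1 of the latter.
Tpm2, chr4:43523555-43523754, minus strand: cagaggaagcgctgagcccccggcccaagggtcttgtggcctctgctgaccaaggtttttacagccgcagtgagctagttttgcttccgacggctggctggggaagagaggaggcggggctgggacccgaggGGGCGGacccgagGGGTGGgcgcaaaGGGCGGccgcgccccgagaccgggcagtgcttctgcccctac
Vim, chr2:13574111-13574310, plus strand: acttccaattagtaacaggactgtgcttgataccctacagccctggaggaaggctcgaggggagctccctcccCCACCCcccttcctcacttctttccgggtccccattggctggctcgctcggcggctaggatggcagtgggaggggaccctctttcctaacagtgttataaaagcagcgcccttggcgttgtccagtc

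Other genes of actin dynamics were taken from a list and had a median nearer to 0 than the module, but below that of all genes. Of 19 measured genes of the Arp2/3 complex, of capping and of severing 15 were below 0 (78.9%, against 51.7% of all genes). The median log2 ratio was −0.65, beside −0.03 over all genes. The 2-fold line above was reached by 0 (against 6.37%) and the line below by 4 (21.1%, against 8.99%). These 4 were Arpc1b, a subunit of the branching complex, at 45.0 and 148 FPKM (3.29-fold lower), Wdr1, which helps cofilin, at 48.9 and 139 FPKM (2.84-fold lower), Twf2 at 3.94 and 11.4 FPKM and Dstn, a relative of cofilin, at 191 and 401 FPKM.

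The 2 branches of SRF control differed in their medians. Of 19 measured targets of MRTF and SRF outside the module 15 were below 0 (78.9%, against 51.7% of all genes). The 2-fold line below was reached by 6 (31.6%, against 8.99%) and the line above by 0 (against 6.37%), and the median of these targets was −0.56. Among them Pdlim5 was at 26.1 and 68.1 FPKM (2.61-fold lower). YAP also drives Ankrd1, Ctgf and Thbs1. Ankrd1 was at 14.02 and 87.5 FPKM (6.24-fold lower, interval 5.49 to 7.11), and the matrix genes Ctgf and Thbs1 were 8.02-fold and 7.19-fold lower. The 10 measured genes of the other branch, the TCF cofactors and their immediate early targets, had a median of 0.22. Below 0 stood 4 of them (40%, against 51.7% of all genes). Of these 10, 2 reached the 2-fold line above (against 6.37% of all genes) and 1 the line below (against 8.99%). Fosb was at 4.99 and 0.702 FPKM and Egr1 at 75.3 and 25.1 FPKM, both higher, while Nr4a1 was at 1.92 and 6.35 FPKM and the cofactor gene Elk3 at 3.28 and 7.10 FPKM. The difference between the branches was not tested.

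**Figure D5:**
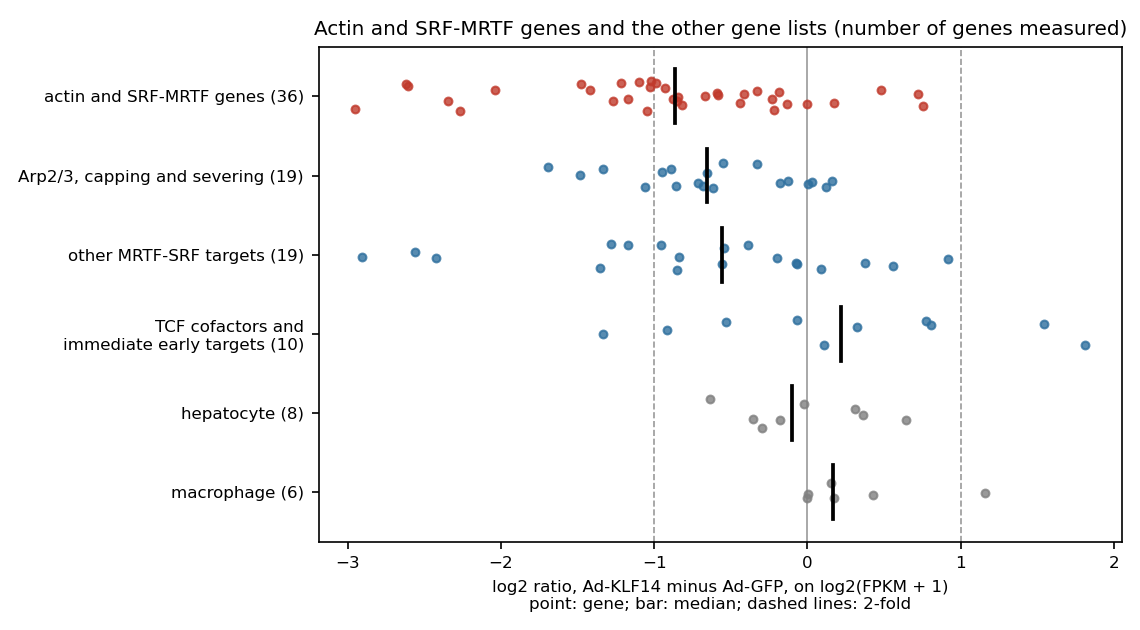
Each point is a measured gene at its log2 ratio (pseudocount 1 FPKM), by list, with the median as a bar and the number of genes in brackets. Of the other lists only those with at least 6 measured genes are drawn, 1 such list excepted. The medians drawn run from −0.86 for the actin and SRF-MRTF genes to 0.22 for the TCF cofactors and immediate early targets, and those of the 8 hepatocyte and 6 macrophage markers are −0.10 and 0.16.

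Markers of other liver cells were compared with the module, since several of these cells carry much actin and vimentin. The 9 markers of stellate cells, smooth muscle and fibroblasts summed to 2.50 FPKM with Ad-KLF14 and 3.53 FPKM with Ad-GFP, of which Dcn made up 2.14 and 2.72 FPKM. Des and Lrat were at 0 with Ad-KLF14 and rested on 3 reads and 1 read with Ad-GFP. The 7 endothelial markers summed to 6.53 and 5.22 FPKM, and the 3 mesothelial markers to 0.115 FPKM in each library. The 7 macrophage markers summed to 191 and 99.8 FPKM, of which Cd68 made up 160 and 71.1 FPKM, and Cd68 was the only one of them past 2-fold. Of the 6 measured macrophage markers 1 was below 0 on the log2 ratio, against 51.7% of all genes. Emr1 was at 4.09 and 2.78 FPKM, Cd5l at 2.73 and 2.30 FPKM and Marco at 5.10 and 4.50 FPKM. Lyz2 and Csf1r, named after their values were seen, were at 17.8 and 17.7 FPKM and at 1.04 and 1.05 FPKM. Of 5 leukocyte markers Cd3e was at 0 in both libraries, Ptprc was at 0.602 and 0.656 FPKM, and Lcp1, which itself encodes an actin bundling protein, was at 39.5 and 133 FPKM. Of 5 cholangiocyte markers Krt7 was at 0 in both libraries, Krt19 was at 0.196 and 1.74 FPKM and Cldn4 at 40.8 and 107 FPKM. The leukocyte and cholangiocyte lists were lower with Ad-KLF14 in sum, 43.0 against 136 FPKM and 44.2 against 113 FPKM. Lcp1 and Cldn4 made up most of these sums. Coro1a, the other measured leukocyte marker, was at 2.75 and 2.33 FPKM and thus higher with Ad-KLF14. Sox9, the other measured cholangiocyte marker, was at 2.88 and 4.26 FPKM. The part of both lists in the module's difference was not tested.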

How the data were processed

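RNA of mouse primary hepatocytes was made into libraries with a TruSeq kit, per the labels' protocols. Bowtie 0.12.2 and build mm8 are named in the submitters' processing notes. Gene models, strand and handling of reads with several matches are not given in the sources used here. The authors deposited FPKM values, 1 table per library.

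Whole reads were worked out from the steps of these values: all 16944 genes above 0 in both libraries stood in ratios of whole numbers (relative tolerance 1e-11). Read totals were the largest that gave whole gene lengths for most of 5236 low genes (70.7%, against 37.0% at 2 times these totals). Reads of a gene are the lowest that give a whole length, and were divided by up to 6 where that length was over 1.25 times the longest GENCODE vM21 transcript, as in 8 members. They are lower limits where reads were not split. Summed over genes they made up 91.0% and 92.3% of the totals. Intervals rest on them, and 3 reads in a gene of 2000 bases are worth 0.135 and 0.133 FPKM. The recovery was tested on simulated data.

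Genes were kept from a mean of 1 FPKM upwards. Log2 ratios used a pseudocount of 1 FPKM. Python 3.11.15 and SciPy 1.17.1 were used. All members and up to 4 genes with the largest absolute log2 ratio per other list are named, others where stated or to show a marker at or near 0. The members and lists were chosen with earlier results of these data known. Alternatives were other pseudocounts, scalings, filters and removal of a trend with expression. Some genes and 1 list are not reported here.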

Additional observations from a re-analysis of the deposited data

How the results depend on the processing

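With pseudocounts of 0.1 and 5 FPKM, a trimmed mean of log ratios, the upper quartile or an equal FPKM sum with or without Klf14 as scaling, no filter or one at 5 FPKM, and a running median removed, 11 to 15 members were at least 2-fold lower, 0 were 2-fold higher, and the median log2 ratio ran from −0.91 to −0.79. Over all genes the share lower ran from 3.31% (no filter) to 12.0% (pseudocount of 0.1 FPKM) and the share higher from 2.38% to 9.53%. The 11 of 36 at a pseudocount of 5 FPKM stand beside 3.76% of all genes. An equal FPKM sum also let 1 more member pass the filter. Of the 15 genes at least 2-fold lower, 11 were so under each of these 9 alternatives that gave them a value (8 for Tpm2, which the filter at 5 FPKM leaves out), and Actn1, Tln1, Capg and Mkl1 were not. Mylk, at a log2 ratio of −0.001, changed sign under 5 alternatives, and no other member did. Chosen after seeing the data, adding Myl12a by its older symbol gave 15 of 37 and a median of −0.85. Leaving out the 12 members whose exons overlap another gene by at least 100 bases gave 11 of 24 and a median of −0.90. The members left out were Actn1, Actn4, Cfl1, Cnn3, Mkl2, Msn, Mylk, Tagln, Tln1, Tpm4, Vcl and Zyx. No paired analysis was possible because each group holds 1 library. For the same reason no replicate could be left out, and the intervals cover counting error only. Depth limits Acta1, Acta2, Cnn1, Fhl1 and Myl9, and Tpm2 rests on 7 reads in Ad-KLF14.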

Other observations

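The genes given here lie outside the module and were chosen after their values were seen. Arpc1b was 3.29-fold lower with Ad-KLF14, while Arpc1a, the other form of this Arp2/3 subunit, was at 39.8 and 45.1 FPKM, 1.14-fold lower. The integrin beta subunit gene Itgb1 and the alpha subunit gene Itga5 lay on either side of 1, at 72.9 and 179 FPKM (2.45-fold lower) and at 47.4 and 31.8 FPKM (1.49-fold higher). The kinase gene Nuak2 was at 15.1 and 7.54 FPKM, 2.0-fold higher, and was the gene with the highest log2 ratio among the 19 measured MRTF-SRF targets outside the module.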
